A study of Mus musculus with 7 samples.

Results

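Small nucleolar RNAs (snoRNAs) are short RNAs of the nucleolus and the Cajal body that pair with other RNAs and direct a protein partner to modify them. In the table of read counts of 7 mouse Group3 medulloblastomas (G3 MBs), 184 of 34592 rows were snoRNA genes. Rows were chosen by their name and selected on their summed count: a row was taken when its name began with SNORA, SNORD or SCARNA, in either letter case, or with snoU, and when its counts summed to at least 50 over the 7 tumors. Of 279 rows with such a name, 95 lay under that limit and 72 of these had no count in any tumor. The lowest members were Snord116l1 at 51, Snora36b at 52 and Snord45c at 53 counts, and just below them were Snord61 and snoU6-53 at 46 counts each and SNORA63 at 37. The members comprised 73 rows of box H/ACA snoRNAs, 86 rows of box C/D snoRNAs, 20 rows of small Cajal body RNAs (scaRNAs) and 5 snoU rows that the name did not place in a class. At least 1 read was counted in all 7 tumors for 182 of the 184 members.

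The study asked which transcripts differ in G3 MB after enforced expression of WDR11, a gene it had found mutated in this tumor. All tumors grew from 1 tumorsphere line, # 19568, which came from granule neuron progenitors lacking Trp53 and Cdkn2c and carrying the retrovirus MSCV Myc-IRES-GFP. The spheres were infected with the lentivirus pCDH-EF1-WDR11-T2A-copGFP, in which the EF1 promoter drives human WDR11, or with the same vector without an insert, and implanted unsorted into the cortex of CD1-nu/nu mice, which lack T cells. By the protocol in the labels the RNA of 4 tumors labelled WDR11OE and 3 control tumors came from frozen tumor chunks, although the source field names the tumorspheres, and the labels give the controls no treatment although the protocol and the paper name the empty vector. Since all tumors share 1 line, the replicates sample tumors and hosts and not independent lines, and chunks can hold cells of the host brain.

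Box C/D snoRNAs carry a C box near the 5′ end and a D box near the 3′ end, and guide the methyltransferase fibrillarin (Fbl) to methylate the 2′-hydroxyl of the paired nucleotide. Box H/ACA snoRNAs fold into a pair of hairpins, with an H box between them and an ACA after the last, and guide the pseudouridine synthase dyskerin (Dkc1). Most of both classes lie in introns of host genes, are cut from the spliced-out intron and serve on ribosomal RNA, while scaRNAs serve on the small nuclear RNAs (snRNAs) of the spliceosome. A few members instead take part in the cleavage or folding of the ribosomal RNA precursor.

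The sequences of 10 members are those of the annotated loci over which the rows count reads (genome build NCBIM37, the RNA strand, 5′ to 3′). In Rps12 on the minus strand, a ribosomal protein gene, the box C/D snoRNAs SNORD101 (chr10:23506276-23506349) and Snord100 (chr10:23505556-23505629) lie in introns beside the box H/ACA snoRNA Snora33 (chr10:23505153-23505281). In Taf1d on the plus strand, a gene for a factor of RNA polymerase I, lie the box H/ACA snoRNAs SNORA8 (chr9:15119289-15119425) and SNORA1 (chr9:15119633-15119765) and the box C/D snoRNA SNORD5 (chr9:15118518-15118588). These 6 are shown because members of 1 host differed from each other. Capitals mark the boxes that a script found, which are the C box TGATGA, the D box CTGA, the H box ANANNA and the ACA.
SNORD101: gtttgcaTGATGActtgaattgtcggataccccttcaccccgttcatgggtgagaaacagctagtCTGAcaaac
Snord100: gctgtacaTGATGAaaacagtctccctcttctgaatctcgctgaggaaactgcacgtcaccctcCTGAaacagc
Snora33: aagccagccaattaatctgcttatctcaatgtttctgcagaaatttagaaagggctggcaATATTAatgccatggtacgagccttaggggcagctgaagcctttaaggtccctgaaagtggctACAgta
SNORA8: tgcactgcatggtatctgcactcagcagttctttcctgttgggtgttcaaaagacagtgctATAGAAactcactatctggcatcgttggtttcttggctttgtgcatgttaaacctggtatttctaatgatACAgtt
SNORA1: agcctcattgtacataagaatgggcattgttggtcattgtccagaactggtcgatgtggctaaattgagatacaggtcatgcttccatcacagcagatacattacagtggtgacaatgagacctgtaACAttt
SNORD5: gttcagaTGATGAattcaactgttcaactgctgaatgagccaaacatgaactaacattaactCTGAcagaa

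The next 2 are single-locus members among those with the smallest p, namely SNORA12 (minus strand, chr19:44188469-44188614) in Cwf19l1 and SNORD94 (minus strand, chr6:71832551-71832687) in Ptcd3. The last 2 are SNORD16 (chr9:64024468-64024566) and Snord16a (chr9:64023230-64023328), both on the plus strand within the ribosomal protein gene Rpl4, which shared 88.9% of their bases by edit distance and of which SNORD16 alone passed the test. All loci named with a host lie inside the span of that gene on the same strand.
SNORA12: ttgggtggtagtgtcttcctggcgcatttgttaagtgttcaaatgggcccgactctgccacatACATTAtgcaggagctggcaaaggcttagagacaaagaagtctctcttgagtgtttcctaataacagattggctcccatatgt
SNORD94: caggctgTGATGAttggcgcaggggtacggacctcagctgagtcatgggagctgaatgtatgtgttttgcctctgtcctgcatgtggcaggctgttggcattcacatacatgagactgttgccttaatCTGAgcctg
SNORD16: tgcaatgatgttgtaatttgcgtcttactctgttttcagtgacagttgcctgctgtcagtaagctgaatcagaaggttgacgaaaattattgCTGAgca
Snord16a: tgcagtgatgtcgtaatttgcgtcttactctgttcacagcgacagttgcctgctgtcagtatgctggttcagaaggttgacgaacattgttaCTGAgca

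Boxes in the sequences mostly followed the names among members with a single annotated locus, but not over all loci of the box H/ACA names. Among the 70 box C/D members with a single annotated locus, a D box CTGA stood in the last 19 bases of 95.7% and a C box TGATGA in the first 20 bases of 60%, and 58.6% had both. Among the 40 such box H/ACA members, 82.5% had an ACA exactly 3 bases before the end and 77.5% also had an H box ANANNA between 40% and 65% of the length. Across classes, none of the 40 box H/ACA members had both C and D boxes, and 1.43% of the 70 box C/D members had both H and ACA boxes. Over all annotated loci that bear the names of the rows, C and D boxes were found in 65.4% of 373 box C/D loci and H and ACA boxes in 19.1% of 1031 box H/ACA loci. Only the strand of the RNA was searched, and ANANNA is short enough to be met often, so a match is a description and no match draws nothing about the RNA. Box H/ACA members were longer, with a median of 134 nucleotides against 80 nucleotides for box C/D among the tested members with 1 locus.

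In the sequencing counts the targeted gene did not separate the groups. The row for human WDR11 stood at 2.03, 2.19 and 3.13 counts per 1000000 reads (CPM) in the control tumors and at 4.38, 2.11, 3.05 and 0.624 CPM in the tumors labelled WDR11OE (log2 fold change 0.05, SE 0.58, adjusted p = 0.961), so that the control tumors lay within the range of the others. Mouse Wdr11 had a log2 fold change of 0.16 (SE 0.06, adjusted p = 0.09104). Each direction given here is therefore that of the tumors labelled WDR11OE against the control tumors. For this line the paper reports more WDR11 transcript in tumors by qRT-PCR. It also reports WDR11 protein by immunofluorescence in spheres grown from such tumors. Whether those were the sequenced tumors is not stated in the paper. Total counts ran from 33417175 to 41397427 in the controls and from 32116095 to 87141305 in the tumors labelled WDR11OE. The sample names of each group carry their own run of numbers, whose meaning the labels do not give. Any difference that goes with these names and the condition cannot be told apart. Among markers of other cells, all 5 skeletal muscle genes were higher (summed level 1.04 to 1.75 CPM against 31.6 to 97.1 CPM) and 2 of 5 endothelial genes were lower, whereas of 27 neuron, astrocyte, oligodendrocyte, microglia and erythroid markers none passed the test under edgeR, limma voom or DESeq2, and 0 had an unadjusted p under 0.05 in edgeR. Of 8 markers of the granule lineage and of G3 MB, Myc was lower (-1.40 on the log2 scale), 5 did not pass the test, Otx2 was too low to be tested and Atoh1 was at 0 in all 7 tumors. The part of these cells in the results below was not tested unless a value is given.

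Per kilobase, the level of members with 1 locus differed widely. Snora73b (also called U17, which acts in the cleavage that frees 18S rRNA) was highest at 5187 CPM per kilobase, followed by the scaRNA Scarna10 at 2127, the box H/ACA snoRNA Snora74a at 1343, Scarna2 at 799 and the box C/D snoRNA Snord17 at 789. The median was 53.4 CPM per kilobase for box H/ACA and 18.4 CPM per kilobase for box C/D. A few members thus made up much of each class: Snora73b took 34.7% of the summed CPM of box H/ACA, Snord17 36.4% of box C/D and Scarna10 37.8% of the scaRNAs. Short RNAs are recovered less well than long ones in such libraries, and how far this sets the difference between the classes was not tested. The label names a kit that selects polyadenylated RNA, the paper total stranded RNA sequencing, and the RNAs of these rows have no poly(A) tail.

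More members were higher than lower in the tumors labelled WDR11OE, with a larger median log2 fold change in box C/D than in box H/ACA. Of 174 members with enough counts to be tested, 64 were higher and 5 lower (edgeR's quasi-likelihood test, Benjamini-Hochberg adjusted p under 0.05), and 105 did not pass the test. Of all 17389 genes tested, 33.9% passed, 18.1% as higher and 15.8% as lower, against 36.8% and 2.87% of the members. Box C/D gave 35 higher and 1 lower of 82 tested members, with a median log2 fold change of 0.76. Box H/ACA gave 21 higher and 4 lower of 69, with a median of 0.38, and the scaRNAs 6 higher of 19, with a median of 0.37. With all 7 tumors no scaRNA was lower under edgeR, limma voom or DESeq2, and 2 were with an unadjusted p under 0.05 in edgeR, whereas without control replicate 2 Scarna3a was lower. The median over all genes tested was 0.08. No test of one class against the other was made, since members share the 7 tumors and are not replicates. Over the 119 tested members with 1 locus, log2 fold changes fell with length (Spearman's rho -0.28, with -0.44 in box H/ACA and -0.10 in box C/D). Box H/ACA members were the longer ones, and how far length sets the difference between the class medians was not tested. All 10 untested members, among them Snord116l1, Snora36b and Snord45c, were too low for the filter.

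**Figure D1:**
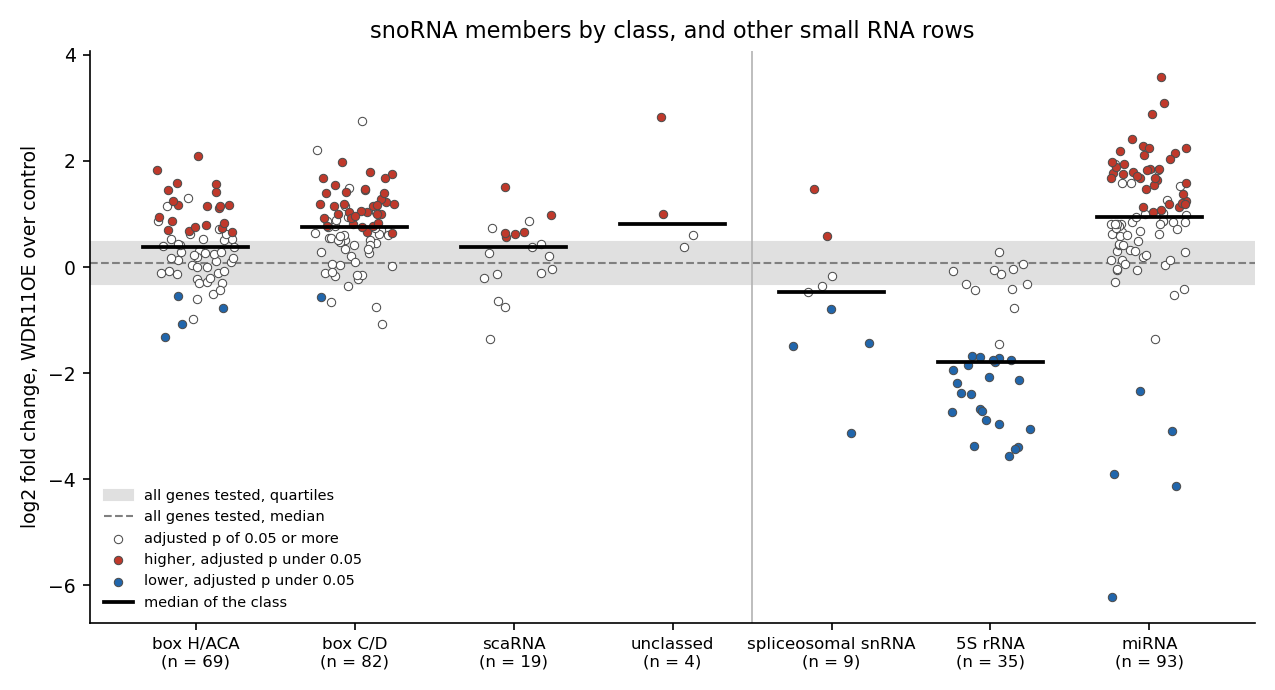
Log2 fold change of each tested row, tumors labelled WDR11OE over control, for the snoRNA members by class and, right of the vertical line, for other small RNA rows. Filled points passed the test, black bars are class medians, and the grey band and dashed line are the quartiles and median of all 17389 genes tested; box C/D has its median at 0.76 and box H/ACA at 0.38, both above 0.08 for all genes.

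The groups did not overlap in 81 members that were higher in all 4 tumors labelled WDR11OE than in any control and in 6 that were lower in all 4. Among all genes tested these shares were 23.5% and 19.1%. Box C/D had 46 of the former and 1 of the latter, and box H/ACA 26 and 4. With the study's limits added (a 2-fold change and an average log2 CPM above 0), 32 members were higher and 2 lower, against 2.36% and 3.45% of all genes tested.

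The number of higher members moved with GC content and with single tumors, while the median of box C/D was above that of box H/ACA in all 16 other fits. Log2 fold changes fell with GC content over the 174 tested members (Spearman's rho -0.30) as over all genes tested (-0.34), and with the GC trend removed 42 members were higher, against 11.1% of all genes, and 6 lower, against 14.3%. In that fit the medians of box C/D and box H/ACA lay closer together, at 0.50 and 0.29, against 0.76 and 0.38 in the main fit. The 16 other fits reuse the same tumors and are not independent of each other. Without WDR11OE replicate 1 the higher and lower members were 35 and 3, without WDR11OE replicate 2 they were 40 and 4, without WDR11OE replicate 3 they were 45 and 3, and without control replicate 2 they were 40 and 9. Box C/D then had 19, 22, 26 and 21 higher members, and box H/ACA 12, 13, 15 and 14. Over these fits the share of all genes called higher was also smaller, at 9.12%, 9.65%, 14.5% and 11.6%, and the share called lower was 11.8%, 12.8%, 13.1% and 12.3%. Without control replicate 2 the median of box H/ACA was 0.21 and that of box C/D 0.71, and over all fits short of 1 tumor these medians ran from 0.21 to 0.54 and from 0.71 to 0.87. In each of the 16 other fits 29 members were higher, and lower in each were SNORA25, Snora74a and Snord17.

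Control replicate 2 stood apart within its group. It was the lowest of the 3 controls in 107 of 174 members (61.5%), against 29.7% of all genes tested, and its median log2 difference from the other controls over the members was -0.38. Among members at 1 CPM or more, the median coefficient of variation was 25.7% over the controls and 10.99% over the tumors labelled WDR11OE, while over all genes tested it was 13.01% and 11.7%. With that tumor and WDR11OE replicate 4, which held the most neuron marker reads, both left out, an alternative chosen after seeing the data, 35 members were higher and 9 lower, against 10.2% and 13.6% of all genes, and the medians were 0.59 for box C/D and 0.19 for box H/ACA.

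The summed levels told a different order from the medians. All box H/ACA members together stood at 3047, 2849 and 3438 CPM in the controls and at 3131, 3304, 2942 and 2748 CPM in the tumors labelled WDR11OE, so that the groups overlapped and the ratio of the means was 0.974. Box C/D members summed to 484, 438 and 458 CPM and 576, 551, 538 and 563 CPM, a ratio of 1.21. The scaRNAs had the largest ratio of the 3 classes, at 1.83, with 1334, 1231 and 1151 CPM in the controls and 2307, 2719, 2204 and 1840.3 CPM in the others. Each box C/D and scaRNA sum was higher in all 4 tumors labelled WDR11OE than in any control. The leading member decided the box C/D value, because without Snord17, which was lower, the sum was between 196 and 256 CPM in the controls and between 391.8 and 418 CPM in the others, a ratio of 1.74. Without Snora73b the box H/ACA ratio was 1.08. In bulk RNA, fewer cells that make an RNA and less of it per cell cannot be told apart.

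Among box C/D members, SNORD101 had the smallest p. Its level was 4.56, 4.697 and 4.96 CPM in the controls and 16.03, 14.5, 13.1 and 20.03 CPM in the tumors labelled WDR11OE, with no overlap and a fold change of 3.35 (log2 fold change 1.75, SE 0.18, adjusted p = 0.00106). SNORD94, a guide for the U6 snRNA, stood at 16.4, 15.98 and 21.7 CPM and 40.4, 38.3, 37.6 and 43.9 CPM, again without overlap (log2 fold change 1.15, SE 0.13, adjusted p = 0.00121). SNORD45 in Rabggtb was at 2.22, 2.504 and 2.33 CPM in the controls and 5.28, 5.41, 5.45 and 5.24 CPM in the others, and varied little within either group (log2 fold change 1.18, SE 0.15, adjusted p = 0.00164). SNORD45, SNORD101 and SNORD94 were among the 29 members higher in all 16 other fits.

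SNORD16 and its near copy Snord16a went apart. SNORD16 was at 1.31, 0.882 and 0.919 CPM in the controls and 3.15, 3.47, 3.14 and 3.45 CPM in the tumors labelled WDR11OE, 3.19-fold higher (log2 fold change 1.67, SE 0.22, adjusted p = 0.00179). Snord16a was at 2.86, 0.9299 and 3.25 CPM and 2.202, 1.86, 2.37 and 1.89 CPM, where control replicate 2 lay far below the other controls and the groups overlapped (log2 fold change -0.17, SE 0.41, adjusted p = 0.782). The host Rpl4 had a log2 fold change of 0.01 (SE 0.15, adjusted p = 0.982). How the counting shared reads between such copies is not given in the sources used here. In all, 8 pairs of single-locus members were at least 80% identical, and their values carry that doubt.

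Of the 10 higher members with the smallest p, 5 were box H/ACA. SNORA12 was at 35.5, 32.2 and 29.9 CPM in the controls and 83.7, 99.8, 88.8 and 85.4 CPM in the tumors labelled WDR11OE, 2.75-fold higher (log2 fold change 1.46, SE 0.09, adjusted p = 0.000858). Snora68 was at 28.6, 21.3 and 40.8 CPM and 108, 115, 104 and 101 CPM (log2 fold change 1.82, SE 0.21, adjusted p = 0.00127). Both were higher in all 4 tumors than in any control, and in all 16 other fits.

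The remaining 3 were pooled rows, in which the reads of all annotated loci of 1 name stand together. SNORA70, with 40 loci, had a mean of 28.9 ± 7.38 CPM over the 3 controls (± SD) and of 123 ± 9.91 CPM over the 4 tumors labelled WDR11OE, a fold change of 4.25 (log2 fold change 2.09, SE 0.18, adjusted p = 0.000917). SNORA79, with 4 loci, went from 31.7 ± 9.47 to 94.7 ± 3.25 CPM (log2 fold change 1.58, SE 0.19, adjusted p = 0.00137), and SNORA40, with 23 loci, from 4.25 ± 0.556 to 9.53 ± 0.551 CPM (log2 fold change 1.16, SE 0.15, adjusted p = 0.00171). Which locus gave the reads cannot be read from such a row. Over the 56 pooled members, 15 of 55 tested were higher and 2 lower (median 0.52), and over the 128 members with 1 locus 49 of 119 were higher and 3 lower (median 0.61). Within the single-locus members there were 32 higher and 1 lower of 66 box C/D members (median 0.77) and 10 higher and 2 lower of 37 box H/ACA members (median 0.29). Within the pooled members 3 of 16 box C/D members were higher (18.8%, median 0.72) and 11 of 32 box H/ACA members (34.4%, median 0.40), so that the shares stood in the other order while the medians did not.

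**Figure D2:**
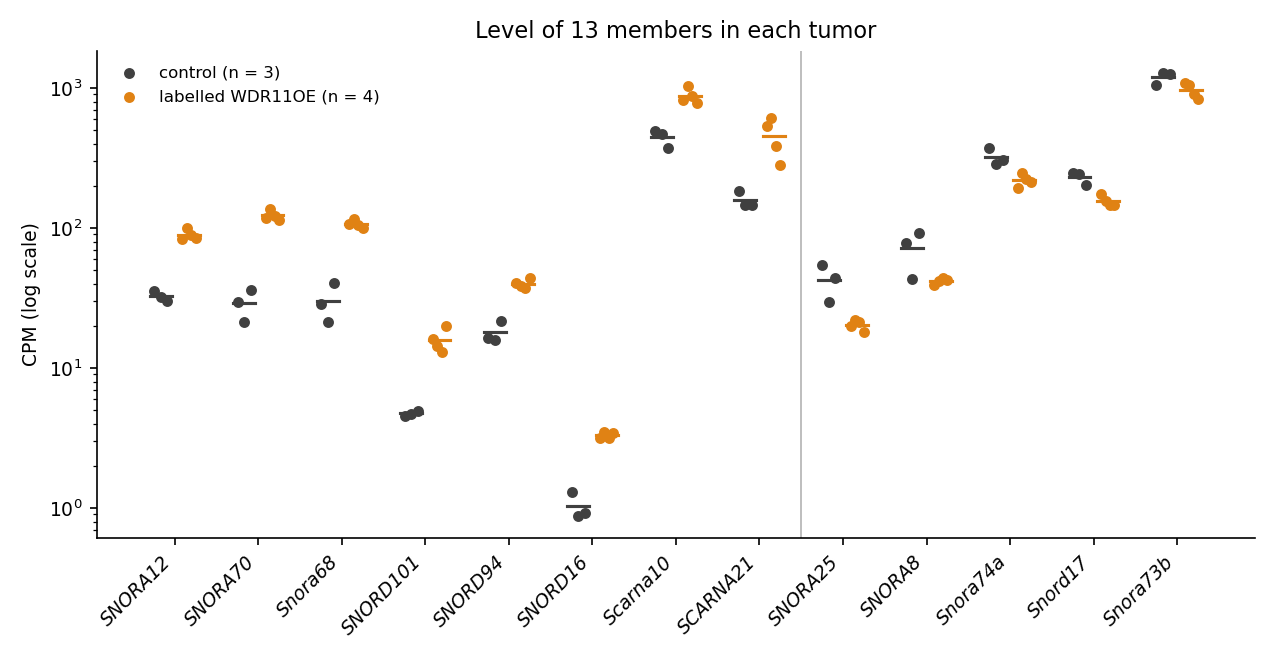
Level of 13 members in each tumor, in CPM on a log scale, with points for tumors and short bars for group means (3 control, 4 labelled WDR11OE). The 8 members left of the line were higher without overlap; to its right SNORA25, Snora74a and Snord17 were lower without overlap, and SNORA8 and Snora73b overlapped.

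The 5 lower members included 2 of those with the most reads. Snord17, which leads box C/D in CPM, was at 246, 242 and 201 CPM in the controls and 176, 157, 146 and 146 CPM in the tumors labelled WDR11OE (log2 fold change -0.56, SE 0.10, adjusted p = 0.00623). Snora74a, also called U19, was at 370.1, 287 and 308 CPM and 194, 247, 225 and 212 CPM (log2 fold change -0.55, SE 0.12, adjusted p = 0.0111). SNORA25, a pooled row of 12 loci, was at 54.4, 29.6 and 44.2 CPM and 19.8, 21.9, 21.3 and 17.996 CPM (log2 fold change -1.08, SE 0.19, adjusted p = 0.00548). These 3 were lower in all 4 tumors labelled WDR11OE than in any control and in all 16 other fits.

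SNORA57 and SNORA8 were less secure. SNORA57, a pooled row of 3 loci, was at 39.1, 23.4 and 71.8 CPM in the controls and 19.1, 20.5, 16.9 and 15.2 CPM in the others (log2 fold change -1.32, SE 0.34, adjusted p = 0.0218), and lost the call without WDR11OE replicate 1 (adjusted p = 0.05102), without WDR11OE replicate 3 (adjusted p = 0.0569) and with the GC trend removed (adjusted p = 0.0745). SNORA8 was at 78.6, 43.1 and 92.8 CPM and 39.1, 42.1, 44.1 and 42.3 CPM (log2 fold change -0.77, SE 0.23, adjusted p = 0.0377), with control replicate 2 within the range of the other group. Its call was lost under limma voom (adjusted p = 0.06505) and without any 1 of the tumors other than control replicate 2, where the adjusted p lay between 0.0553 and 0.125. The next members by p on the lower side did not pass the test, with log2 fold changes of -0.75 for Scarna3b, -1.36 for Scarna8, -0.98 for SNORA71 and -1.07 for Snord49b. Of these, SNORA71 and Snord49b passed without control replicate 2 (adjusted p = 0.00857 and 0.0229).

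Of the members that act in the cleavage or folding of the ribosomal RNA precursor, Snord14a was higher and the others did not pass the test. Snord14a, a copy of U14 that is needed for 18S rRNA, was at 1.42, 0.978 and 1.16 CPM in the controls and 2.96, 2.57, 2.22 and 3.100 CPM in the tumors labelled WDR11OE (log2 fold change 1.19, SE 0.23, adjusted p = 0.00758). Its call was lost when control replicate 2 and WDR11OE replicate 4 were both left out (adjusted p = 0.0537). Snora73b was at 1044, 1282 and 1256 CPM and 1077, 1054, 901 and 829.9 CPM, with overlap (log2 fold change -0.31, SE 0.14, adjusted p = 0.126), and passed the test only under DESeq2 (adjusted p = 0.0485). Its copy Snora73a, which shares exon sequence with its host Snhg3 and is 96.6% identical to Snora73b, was below 1 CPM throughout and had a log2 fold change of -0.52 (SE 0.24, adjusted p = 0.139). The pooled row SNORA73, with 13 loci, had a log2 fold change of -0.10 (SE 0.09, adjusted p = 0.444).

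Snord118 (U8), which acts on the precursor of 5.8S and 28S rRNA, stood at 21.8, 14.9 and 25.1 CPM in the controls and 15.8, 18.5, 18.8 and 17.8 CPM in the others (log2 fold change -0.22, SE 0.18, adjusted p = 0.397). Snord13 (U13), a factor of 18S rRNA, was at 7.78, 1.88 and 12.04 CPM and 4.31, 5.33, 4.71 and 4.01 CPM (log2 fold change -0.65, SE 0.52, adjusted p = 0.383), and control replicate 2 was far under the other controls. Without that tumor Snord13 passed the test as lower (-1.11 on the log2 scale, adjusted p = 0.0204). The pooled row snoU13, with 25 loci, was between 0.154 and 0.274 CPM in both groups (log2 fold change -0.14, SE 0.35, adjusted p = 0.855). U3, the most abundant RNA of this kind, has a row whose name falls outside the rule, and it was at 6428, 4711 and 6974 CPM and 3929, 4759, 3757 and 2844 CPM with overlap (log2 fold change -0.66, SE 0.23, adjusted p = 0.0633). A row for U22 (Snord22) was at 0 in all 7 tumors.

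Among the scaRNAs with the most reads, 3 were higher in every fit. Scarna10, also called U85, which guides both kinds of modification on the U5 snRNA, was at 494, 469 and 371 CPM in the controls and 817, 1025, 884 and 778 CPM in the tumors labelled WDR11OE (log2 fold change 0.98, SE 0.15, adjusted p = 0.00279). SCARNA21, a pooled row of 3 loci, was at 184, 146 and 146 CPM and 533, 612, 385 and 281 CPM, 2.85-fold higher (log2 fold change 1.51, SE 0.27, adjusted p = 0.00549). Scarna13 was at 147, 125 and 131 CPM and 203, 235, 218 and 193 CPM (log2 fold change 0.66, SE 0.09, adjusted p = 0.00242). For these 3 scaRNAs the groups did not overlap, and the calls were kept in all 16 other fits.

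The calls of SCARNA6, SCARNA1 and Scarna2 were weaker. SCARNA6 was at 168, 136 and 102 CPM and 199.9, 221, 225 and 202 CPM (log2 fold change 0.64, SE 0.16, adjusted p = 0.0196), and missed the threshold without control replicate 2 or any 1 of WDR11OE replicates 1 to 3 (adjusted p from 0.0505 to 0.0735). SCARNA1 had a log2 fold change of 0.56 (SE 0.17, adjusted p = 0.0371), which was 0.22 with the GC trend removed (adjusted p = 0.4298) and passed the test among the fits short of 1 tumor only without control replicate 3 or WDR11OE replicate 4. Scarna2, which has its own promoter and no host, was at 216, 255 and 291 CPM and 424, 485, 362 and 282 CPM, with overlap (log2 fold change 0.61, SE 0.20, adjusted p = 0.0468), and lost the call without any 1 tumor except WDR11OE replicate 4. Of the other 13 tested scaRNAs none passed with all 7 tumors under edgeR, limma voom or DESeq2 (4 had an unadjusted p under 0.05 in edgeR), and the log2 fold changes ran from -1.36 for Scarna8 to 0.86 for Scarna17. Among these were SCARNA23 (0.73), SCARNA4 (0.43), SCARNA17 (0.37), SCARNA20 (0.26), Scarna6 (0.21), Scarna9 (-0.04), SCARNA14 (-0.12), SCARNA11 (-0.13), SCARNA15 (-0.21), Scarna3a (-0.64) and Scarna3b (-0.75). Without control replicate 2, Scarna3a passed the test as lower (-0.93 on the log2 scale, adjusted p = 0.0414), and so it did with WDR11OE replicate 4 also left out (adjusted p = 0.0413). SCARNA24 was too low to be tested.

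The unclassed row snoU90 in Kpna4 was at 81.3, 66.4 and 55.2 CPM in the controls and 137, 127, 132 and 146 CPM in the tumors labelled WDR11OE (log2 fold change 1.003, SE 0.13, adjusted p = 0.00182). The row snoU2-30 had the largest fitted change of all members (log2 fold change 2.84, SE 0.50, adjusted p = 0.00498) on a mean of 0.0456 CPM in the controls, where the counts were 1, 2 and 2, so the size of its fold rests on few reads. The row met the limit on summed counts only through the tumors labelled WDR11OE, so its selection was not independent of its direction. The row was named after its value was seen.

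The snRNAs, which scaRNAs modify, and other short rows moved both ways. Of 9 spliceosomal snRNA rows 2 were higher and 4 lower, and of 35 tested 5S rRNA rows 23 were lower and none higher under edgeR, limma voom or DESeq2 (0 with an unadjusted p under 0.05 in edgeR), whereas 37 of 93 miRNA rows were higher and 5 lower. The summed level of all 673 miRNA rows went the other way, with means of 24113 CPM in the controls and 3097 CPM in the others, a ratio of 0.128. Mir5105 alone had means of 19583 and 2296 CPM, mmu-mir-689-2 of 3109 and 617 CPM, and mmu-mir-2134-4 of 1268 and 85.3 CPM. The sum thus follows these few rows and not the miRNA rows at large. Whether the reads of these rows came from miRNAs was not tested. U2 was at 5829, 4964 and 5464 CPM in the controls and 2992, 3173, 3067 and 3367 CPM in the tumors labelled WDR11OE (log2 fold change -0.78, SE 0.14, adjusted p = 0.00544). U5 was at 64.7, 6.94 and 134 CPM and 5.68, 8.95, 8.44 and 8.204 CPM, and here too control replicate 2 was far below the other controls (log2 fold change -3.13, SE 0.79, adjusted p = 0.0205). Over all 144 tested short rows that are not snoRNAs, 39 were higher and 33 lower, or 27.1% and 22.9%, against 18.1% and 15.8% of all genes tested.

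SNORD115 and SNORD116, clusters of box C/D copies that are transcribed from the paternal allele in neurons, had large fitted changes that did not pass the test. SNORD115, with 137 loci, was at 4.61, 0.596 and 0.337 CPM in the controls and 0.142, 0.536, 9.71 and 39.5 CPM in the tumors labelled WDR11OE (log2 fold change 2.76, SE 1.83, adjusted p = 0.296). SNORD116, with 27 loci, was at 2.42, 0.3100 and 0.276 CPM and 0.379, 0.324, 2.96 and 14.9 CPM (log2 fold change 2.22, SE 1.52, adjusted p = 0.3095). Both were highest in WDR11OE replicate 4, then in WDR11OE replicate 3 and control replicate 1, and the groups overlapped.

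The summed level of 7 neuron markers was highest in the same 3 tumors, with 278, 86.5 and 48.3 CPM in the controls and 10.7, 24.1, 125 and 387 CPM in the others. These markers did not separate the groups. Without WDR11OE replicate 4 the log2 fold change of SNORD115 was 0.89 and that of SNORD116 0.25. With control replicate 2 also left out, SNORD116 was at -0.20. The sum of all box C/D members was 576 CPM in WDR11OE replicate 1, which had the fewest neuron marker reads, and 563 CPM in WDR11OE replicate 4, which had the most. Without Snord17 this sum was 399.6 CPM in WDR11OE replicate 1 and 418 CPM in WDR11OE replicate 4, where it was highest of all tumors. The pooled box C/D rows, SNORD115 and SNORD116 among them, summed to 36.9, 23.2 and 29.97 CPM in the controls. In the tumors labelled WDR11OE they summed to 43.3, 40.8, 56.4 and 98.8 CPM. The part of neurons in the box C/D values was not tested. Snord116l1, the lowest member, had at most 0.4600 CPM and was not tested.

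**Figure D3:**
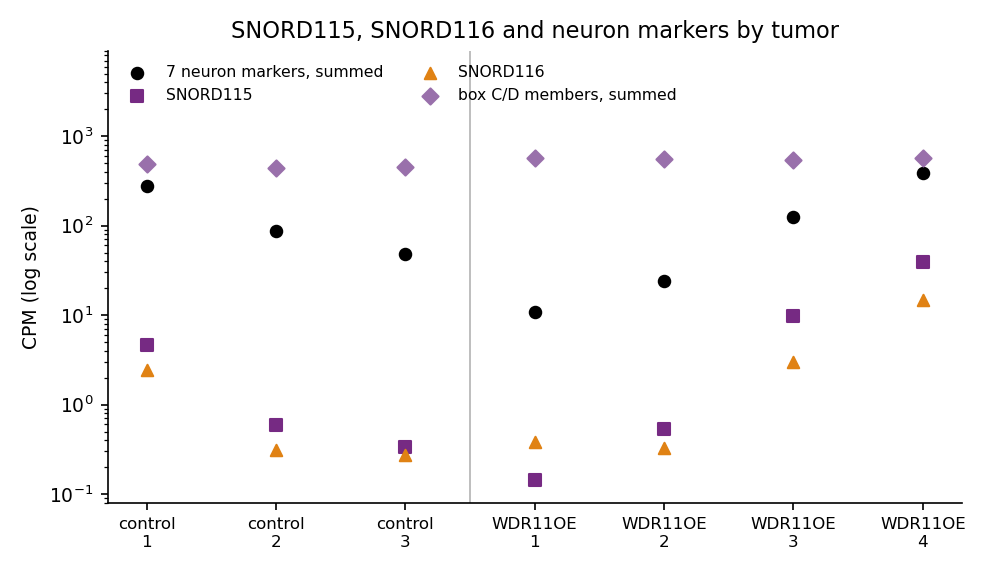
Levels of SNORD115, SNORD116, the sum of 7 neuron markers and the sum of all box C/D members in each of the 7 tumors, in CPM on a log scale. SNORD115 runs from 0.142 to 39.5 CPM and is highest where the neuron markers are highest. The box C/D sum runs from 438 to 484 CPM in the controls and from 538 to 576 CPM in the tumors labelled WDR11OE.

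Most members sit inside other genes, so their levels were set beside those of the hosts. Whether the reads of such a row came from the snoRNA or from unspliced RNA of the host was not tested. Of the 128 members with 1 locus, 110 lay within a gene on the same strand and 18 did not. Among the 18, 16 were tested and 8 were higher (median 0.87), with 0 lower under edgeR, limma voom or DESeq2 and 0 at an unadjusted p under 0.05 in edgeR, and among the 110, 103 were tested and 41 were higher and 3 lower (median 0.58). A member counts here as without a host when the annotation has no gene around it on the same strand, so hosts missing from the annotation are not seen. No test between the members with and without a host was made.

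Host and member were both tested in 107 pairs with 79 hosts. The member's log2 fold change was above that of its host in 74 pairs and below in 33, with a median difference of 0.37. Box C/D members were above the host in 48 of 58 pairs and box H/ACA members in 18 of 35, with median differences of 0.40 and 0.03. Across pairs, which share libraries and in part hosts, Spearman's rho of member and host was 0.10 over all pairs, 0.32 over box C/D and -0.21 over box H/ACA. Of 41 pairs with a higher member, the host was higher in 20, did not pass the test in 17 and was lower in 4. Of the 85 hosts tested, 25 were higher and 13 lower (29.4% and 15.3%, against 18.1% and 15.8% of all genes tested), with a median of 0.21.

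**Figure D4:**
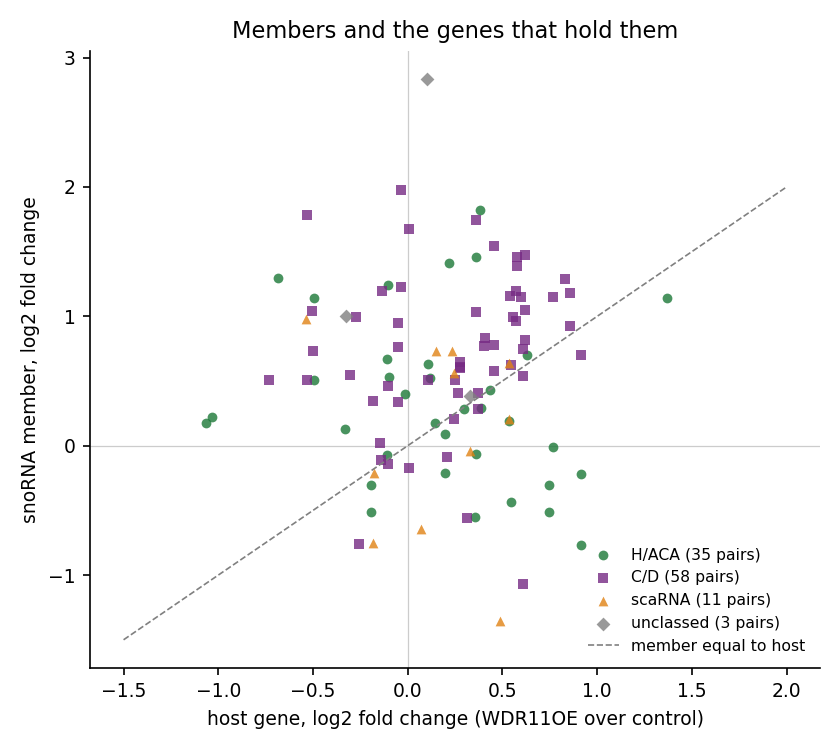
Log2 fold change of each single-locus member against that of the gene that holds it, over 107 pairs, tumors labelled WDR11OE over control. Of the 58 box C/D pairs 48 lie above the dashed line of equality, and of the 35 box H/ACA pairs 18.

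In 4 pairs a higher member lay in a host that was lower. Scarna10 was higher (0.98 on the log2 scale) while its host Ncapd2, a condensin subunit, was lower, at 271, 257 and 342 CPM in the controls and 204, 208, 213 and 175 CPM in the others (log2 fold change -0.54, SE 0.12, adjusted p = 0.0137). Among the others were snoU90 in Kpna4 (1.003 against -0.33) and Snora2b in 2310037I24Rik (1.14 against -0.49). The reverse held for SNORA8 in Taf1d and for Snord17 in Snx5, a sorting nexin gene that was higher (log2 fold change 0.31, SE 0.07, adjusted p = 0.01497). The call of Snx5 was lost in 8 of the 16 other fits, with a log2 fold change of 0.10 and adjusted p = 0.452 with the GC trend removed. Snora74a lies in the noncoding host Snhg4, which had a log2 fold change of 0.36 (SE 0.12, adjusted p = 0.0529).

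Members of a single host differed. In Rps12, whose own level was 329.9, 282 and 512 CPM in the controls and 495, 526, 443 and 457 CPM in the tumors labelled WDR11OE (log2 fold change 0.36, SE 0.20, adjusted p = 0.216), SNORD101 was 3.35-fold higher. Snord100 was at 1.75, 1.34 and 1.62 CPM and 3.43, 3.03, 3.17 and 3.25 CPM, without overlap (log2 fold change 1.04, SE 0.19, adjusted p = 0.00553). Snora33, from the same transcript, was at 8.56, 5.65 and 9.19 CPM and 7.63, 7.42, 7.12 and 7.65 CPM, within the spread of the controls (log2 fold change -0.07, SE 0.19, adjusted p = 0.825). The box C/D members of Rps12 were thus higher and its box H/ACA member did not pass the test; the difference between them was not tested. Rps12 itself passed the test without control replicate 3 (0.65 on the log2 scale, adjusted p = 0.0112).

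In Taf1d the host was higher, at 92.8, 63.8 and 74.6 CPM in the controls and 128, 145, 155 and 152 CPM in the tumors labelled WDR11OE (log2 fold change 0.91, SE 0.14, adjusted p = 0.00286), and SNORA8 was lower. SNORA1 was at 7.59, 4.697 and 9.26 CPM and 5.52, 6.49, 6.69 and 5.91 CPM (log2 fold change -0.22, SE 0.24, adjusted p = 0.519). SNORD5 was at 1.36, 0.906 and 1.75 CPM and 1.63, 2.196, 2.31 and 2.53 CPM (log2 fold change 0.70, SE 0.29, adjusted p = 0.105), and overlapped. Control replicate 2 was the lowest control for the host and for all 3 of these members.

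The order was not the same in all hosts. Hosts of at least 2 tested members numbered 21, and 4 of these held both classes. In Ncl, the gene of nucleolin, the box H/ACA member Snora75 was higher (2.95, 2.03 and 2.33 CPM against 5.75, 5.88, 6.01 and 5.38 CPM; log2 fold change 1.24, SE 0.19, adjusted p = 0.00286), while the box C/D members SNORD20 and Snord82 had log2 fold changes of 0.46 and -0.14 that did not pass the test. The host Ncl stood at -0.10 on the log2 scale (adjusted p = 0.593). In Eef1b2 the box C/D member SNORD51 and the box H/ACA member Snora41 were alike in value, at 0.51 and 0.63, and neither passed.

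Hosts with box C/D members alone also held both kinds. In Nop58, which encodes a core protein of box C/D particles and was itself higher (log2 fold change 0.62, SE 0.11, adjusted p = 0.00477), Snord11, SNORD11 and Snord70 were higher, at 1.47, 0.82 and 1.05. In Gnl3, the gene of nucleostemin (log2 fold change 0.46, SE 0.09, adjusted p = 0.00906), Snord19 was higher at 1.54 (adjusted p = 0.00224), whereas SNORD19B and Snord69 had 0.78 and 0.58 and did not pass. The call of Nop58 was lost with the GC trend removed (0.31 on the log2 scale, adjusted p = 0.0997). In Sf3b3, a splicing factor gene (-0.04, adjusted p = 0.808), Snord111 and SNORD111 were higher at 1.98 and 1.22. The noncoding gene 2410006H16Rik spanned the widest range of any host with box C/D members alone except Rpl4, from -1.07 for Snord49b, which did not pass, to 0.75 for Snord49a, which was higher.

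**Figure D5:**
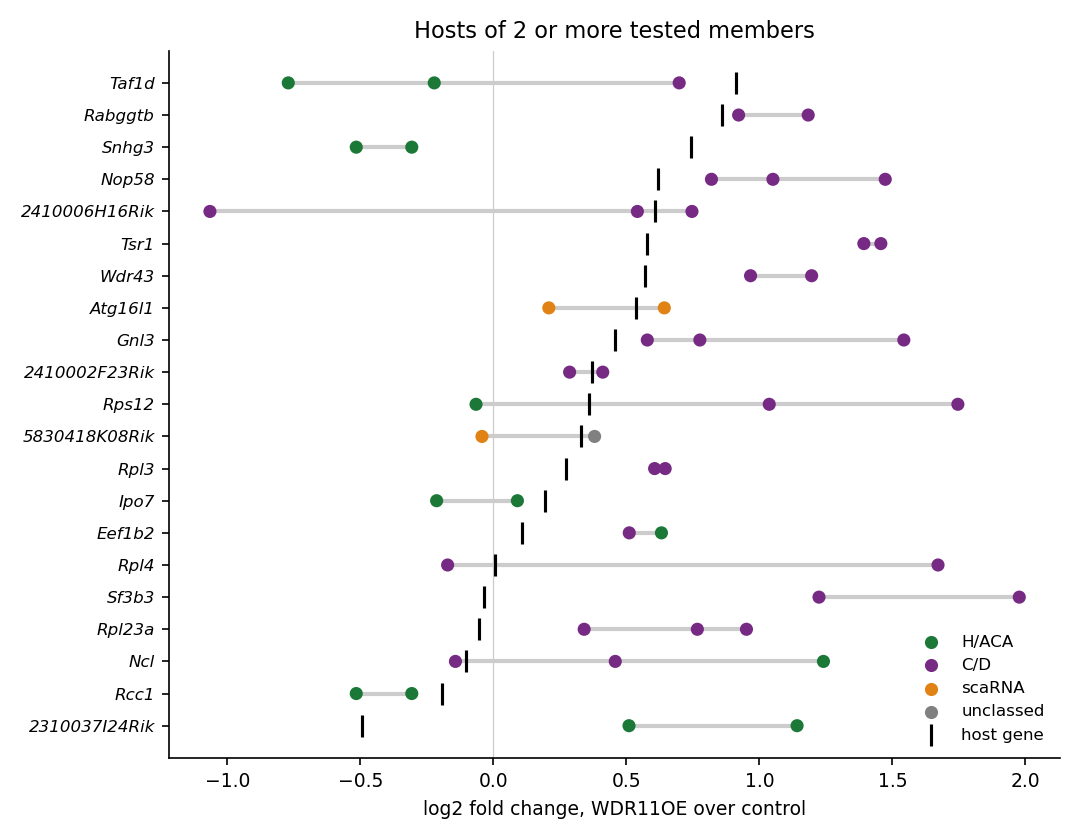
Log2 fold change of the members (points, coloured by class) and of the host gene (black tick) for the 21 hosts of at least 2 tested members, ordered by the host. In Rps12 the members run from -0.07 to 1.75 around a host at 0.36, and in Taf1d from -0.77 to 0.70 under a host at 0.91.

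The proteins of the particles were measured in the same tumors. Of 31 genes of core proteins, assembly factors and processing factors, 8 were higher and 3 lower (25.8% and 9.68%, against 18.1% and 15.8% of all genes tested). In box C/D particles the scaffold proteins Nop56 and Nop58 were higher, with 282, 250.01 and 309 CPM in the controls and 421, 418, 402 and 393 CPM in the tumors labelled WDR11OE for Nop56 (log2 fold change 0.54, SE 0.09, adjusted p = 0.00408). The methyltransferase Fbl was at 72.5, 86.2 and 121 CPM and 104, 103, 82.4 and 73.9 CPM (log2 fold change -0.04, SE 0.20, adjusted p = 0.907), and Nhp2l1, which binds the kink-turn of these RNAs, had 0.35 (adjusted p = 0.115).

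In box H/ACA particles Gar1 was lower, at 24.9, 25.5 and 31.3 CPM in the controls and 18.2, 19.96, 16.98 and 15.04 CPM in the tumors labelled WDR11OE (log2 fold change -0.63, SE 0.13, adjusted p = 0.00959). Naf1, the assembly factor whose place Gar1 takes in the mature particle, was also lower (log2 fold change -0.59, SE 0.11, adjusted p = 0.00735), as was the chaperone Ruvbl2 (log2 fold change -0.49, SE 0.13, adjusted p = 0.0281). Nop10 and Nhp2 were higher (0.56 and 0.54, adjusted p = 0.0166 and 0.0292), and the synthase Dkc1 did not pass the test (log2 fold change 0.22, SE 0.12, adjusted p = 0.221). Nop10 lost its call with the GC trend removed and without control replicate 2 or either of WDR11OE replicates 1 and 2 (adjusted p from 0.0625 to 0.0797), and Nhp2 without any 1 of control replicates 1 and 2 and WDR11OE replicates 1 to 3 (adjusted p from 0.06000 to 0.114).

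Among the processing factors, Ssb, the La protein that binds the ends of new small RNAs, was 1.85-fold higher at 140.4, 137 and 168 CPM in the controls and 277, 274, 267 and 279 CPM in the others (log2 fold change 0.89, SE 0.09, adjusted p = 0.00106). The exonuclease Xrn2, which trims 5′ ends, and Lsm6 were higher as well (0.55 and 0.42, adjusted p = 0.0101 and 0.0144), as was the assembly factor Znhit3 (log2 fold change 0.63, SE 0.10, adjusted p = 0.00372). Of the remaining factors, Coil and Wrap53 of the Cajal body had log2 fold changes of 0.06 and 0.14, the debranching enzyme Dbr1 0.21 and the exosome subunit Exosc10 0.05, and none of these passed. Without WDR11OE replicate 1 or control replicate 2 the 31 genes gave 7 calls in either direction each, against 11 with all tumors.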

How the data were processed

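The authors aligned reads by their StrongArm pipeline to NCBIM37.67, obtained gene counts by HT-seq from GENCODE models, and deposited these as raw counts in 34592 rows. The submitters' notes name mm9, CASAVA 1.7, STAR, BWA and HTSeq. The strand setting and the treatment of reads with several matches are not given in the sources used here. Rows for names with several loci hold 1 count for all of them.

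From these counts, genes kept by filterByExpr (17389) were scaled by TMM and tested in edgeR 4.0.16 (R 4.3.3) with the two-sided quasi-likelihood test, condition as the only term, 3 control against 4 WDR11OE tumors, and Benjamini-Hochberg adjustment over all of them. CPM are TMM-scaled, and no pseudocount was added. Total counts of 32116095 to 87141305 cover counting error only. Replicate numbers follow accession order. limma 3.58.1 (voom), DESeq2 1.42.0, other scalings and filters, a GC correction and leaving out tumors were the alternatives. The code was tested on simulated data. Coordinates, hosts and sequences came from the GENCODE vM1 annotation and genome of NCBIM37, in which 33606 rows had an identifier.

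The classes, gene lists and tests were chosen with earlier results of these data known. Named were the 10 members with the highest level, the 10 higher and 10 lower members with the smallest p, the members acting on the ribosomal RNA precursor, the scaRNAs, SNORD115 and SNORD116, the 3 members on each side of the count limit, the core proteins and the hosts. Other members were named after their values were seen, to describe shared hosts. The host genes come from the annotation, and a few of them are not reported here.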

Additional observations from a re-analysis of the deposited data

How the results depend on the processing

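With the GC trend removed, 42 members were higher (13 box H/ACA, 22 box C/D), the medians were 0.29 for box H/ACA and 0.50 for box C/D, and 7 particle protein genes passed. With control replicate 2 and WDR11OE replicate 4 both left out, 35 members were higher and 9 lower (12 box H/ACA and 17 box C/D higher, 3 box C/D lower), the medians were 0.19 and 0.59, and 6 particle protein genes passed. At an adjusted p under 0.01, 33 members were higher and 2 lower (11 and 1 in box H/ACA, 17 higher in box C/D), with 43 other short rows, 6 particle protein genes and 23 hosts. The share of all genes at this threshold is not given here, so these counts are not set against it. With the 2-fold limit, 32 were higher and 2 lower (12 and 2 in box H/ACA, 18 and 0 in box C/D), with 33 other short rows, 0 particle protein genes and 3 hosts. Box C/D had 22 higher members without a filter (25.6%, against 7.92% of all genes), and 41 other short rows passed with the filter of 1 CPM in 3 tumors. The log2 ratio of summed levels was 0.11 for box H/ACA and 0.80 for box C/D without the highest member, and 0.21 for box C/D without members that share exon sequence.

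Leaving out 1 tumor at a time gave 35 to 60 higher and 3 to 9 lower members, 12 to 20 and 2 to 5 in box H/ACA, 19 to 33 and 1 to 3 in box C/D, and 7 to 13 particle protein genes. Over the same fits 9.12% to 17.6% of all genes were higher and 11.7% to 16.9% lower. The log2 ratio of the summed box H/ACA levels then ran from -0.097 to 0.040. Fewer samples raise p in such fits. No paired analysis was possible because the labels give the tumors no replicate numbers and those used here are accession order. limma voom, DESeq2 and scaling by RLE, total count or the upper quartile left each count of members within 1.5 times of its main value.

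Some named genes turned in sign, and the cause was not tested. SNORA32, at 0.045 with all tumors, was at -0.0075 without a filter, -0.36 with the GC trend removed, where it passed the test as lower (adjusted p = 0.0453), and -0.048 with both tumors left out, where SCARNA20 was at -0.028 and SNORD116 at -0.20. With the GC trend removed, Fbl was at 0.17, Dkc1 at -0.0094 and Rfwd2, the host of Scarna3a, at -0.20. Rpl4 was at -0.037 under DESeq2, -0.037 with RLE, -0.00046 with total counts, -0.048 without a filter, -0.0033 with the filter of 1 CPM, -0.0035 with the GC trend removed and -0.015 with both tumors left out. Over fits short of 1 tumor the ranges were -0.049 to 0.13 for SNORA32, -0.28 to 0.13 for SCARNA11, -0.23 to 0.056 for SCARNA14, -0.23 to 0.091 for Scarna9, -0.19 to 0.19 for Fbl, -0.10 to 0.12 for Rpl4, -0.0066 to 0.13 for Rfwd2, -0.013 to 0.30 for Gm15710, a gene that spans SCARNA23, and -0.25 to 0.072 for Rps13, the host of Snord14a. Depth limits the members near 50 summed counts, of which 10 could not be tested.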
